A study of Rattus norvegicus with 6 samples.

Results

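The aldo-keto reductase family 1 (Akr1) genes of rat liver were followed after tienilic acid (TA), a uricosuric diuretic withdrawn because of hepatitis. The family was taken as every probe set whose single annotated symbol begins with Akr1, a probe set being the group of oligonucleotides that together measure a transcript. This gave 18 of the 31042 probe sets on the array, for 13 genes. All rats were male Sprague Dawley animals of 210 to 230 g, and ages are not given in the sources used here. Vehicle rats were gavaged with sodium bicarbonate, and treated rats with TA at 100 mg/kg dissolved in it. Livers were taken 6 h after 1 dose, or 24 h after the first of 2 doses, the second being given at 16 h. At each time 2 treated rats were run on an array each, while the vehicle array carried the pooled RNA of 2 rats.

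Values are on a log2 scale, so that a difference of 1 is 2-fold. The family was chosen by differences seen between TA and vehicle, in earlier results where Akr1b7 and Akr1c1 stood among the genes farthest from vehicle at 6 h. The family's differences between TA and vehicle are therefore given as a description, with no test. Their standard errors (SE) come from limma's fit and rest on the spread between treated animals, pooled over 6 h and 24 h. A gene therefore has the same SE at both times, and n gives only the animals in the mean. The SE also assume that a vehicle pool varies like a treated animal. Array medians lay between 3.27 and 3.31, and pairs of arrays correlated over all probe sets at 0.991 to 0.997. The array settings give a hybridization date and time, and arrays were split where these lay more than 10 min apart. The 6 h vehicle pool and TA animal 1 of 6 h formed a first group and the remaining 4 arrays a second. These inferred groups are called hybridization groups here. All 8 hepatocyte markers, among them Alb and Ttr, were above the filter on low values (a mean of 2.82), and their summed level lay between 18.12 and 18.24 on the 6 arrays.

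Aldo-keto reductases are NADPH-dependent enzymes that reduce aldehydes and ketones to alcohols. The B group holds aldose reductase and its relatives, which act on sugars, retinaldehyde and reactive lipid aldehydes. The C group holds hydroxysteroid dehydrogenases, which interconvert ketosteroids and hydroxysteroids, and the D group the steroid beta-reductase of bile acid synthesis. In liver the family serves steroid and bile acid metabolism and the clearance of reactive carbonyls, and several members in rodents and humans are known targets of the antioxidant transcription factor Nrf2.

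In the RefSeq annotation (assembly GRCr8), the members fall into 2 gene clusters and single genes. On chromosome 4, Akr1b1, Akr1b8, Akr1b10 and Akr1b7 follow each other with 0 protein-coding genes between them, and Akr1d1 lies 19 protein-coding genes further on. On chromosome 17, the order is Akr1e2, Akr1c2, Akr1c1, Akr1c12l1, Akr1c13, Akr1c19, Akr1c12, Akr1c3, Akr1c14 and Akr1c15. Of these, no probe set carried Akr1c2, Akr1c12l1 or Akr1c12 as its symbol. The reference promoter table held 10 of the 13 genes, all but Akr1b1, Akr1c1 and Akr1d1.

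The windows of 250 bases before the start of Akr1c13 (chr17:70894386-70894635, plus strand) and Akr1c12 (chr17:70971413-70971662, minus strand) are shown because they are the most alike of 78 pairs among 13 Akr1 promoters. The sequences are from RefSeq, build GRCr8, written 5′ to 3′. Capitals mark the bases that differ in the alignment or have no partner, 26 in each, the ends included where one window runs past the other.
Akr1c13: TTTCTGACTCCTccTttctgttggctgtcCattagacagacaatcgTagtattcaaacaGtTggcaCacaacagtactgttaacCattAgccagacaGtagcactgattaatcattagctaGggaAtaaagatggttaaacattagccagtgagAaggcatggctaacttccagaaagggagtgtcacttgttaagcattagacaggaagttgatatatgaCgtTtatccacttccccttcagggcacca
Akr1c12: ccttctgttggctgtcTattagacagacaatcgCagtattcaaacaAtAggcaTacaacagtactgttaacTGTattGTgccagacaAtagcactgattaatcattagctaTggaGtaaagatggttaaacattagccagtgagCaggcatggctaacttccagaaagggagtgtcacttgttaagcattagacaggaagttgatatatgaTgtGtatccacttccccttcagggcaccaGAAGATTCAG
The pair shared 89.6% of bases. Akr1c12l1 shared 82.4% with Akr1c13 and 82.8% with Akr1c12, while the other 75 pairs lay between 52.8% and 64.0%. No transcript or probe sequences were compared, so whether the probe set annotated to Akr1c13 also measures Akr1c12 or Akr1c12l1 was not tested.

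The promoters of Akr1b7 (chr4:64043720-64043969, plus strand), whose values varied most in the family, and of Akr1c15 (chr17:71117958-71118207, minus strand) are shown for the motifs that were searched on both strands. Capitals mark a match.
Akr1b7: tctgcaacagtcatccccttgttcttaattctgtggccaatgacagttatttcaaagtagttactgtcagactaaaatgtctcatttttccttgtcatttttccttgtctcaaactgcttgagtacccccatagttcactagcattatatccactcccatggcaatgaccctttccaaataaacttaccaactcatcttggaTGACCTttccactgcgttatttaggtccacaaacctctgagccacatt
Akr1c15: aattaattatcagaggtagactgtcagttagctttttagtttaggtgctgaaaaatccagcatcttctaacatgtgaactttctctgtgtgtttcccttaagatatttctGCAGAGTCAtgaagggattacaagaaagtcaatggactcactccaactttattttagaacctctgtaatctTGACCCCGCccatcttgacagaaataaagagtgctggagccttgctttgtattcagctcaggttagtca
The nuclear receptor motif AGGTCA was found in Akr1b7, in reverse orientation and starting 48 bases before the start of the gene, and in Akr1b10. It was in 2 of the 10 member promoters and in 14.1% of 33469 promoters of the same length. The core of the antioxidant response element, TGACNNNGC, was found at 140 and at 69 bases before the start of Akr1c15, the first in reverse orientation. It was in 1 of the 10 member promoters, against 10.1% of all promoters. The E-box CACGTG was in 0 of the 10, against 5.59% of all. These matches describe the letters of these windows and are not evidence of binding.

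**Figure D1:**
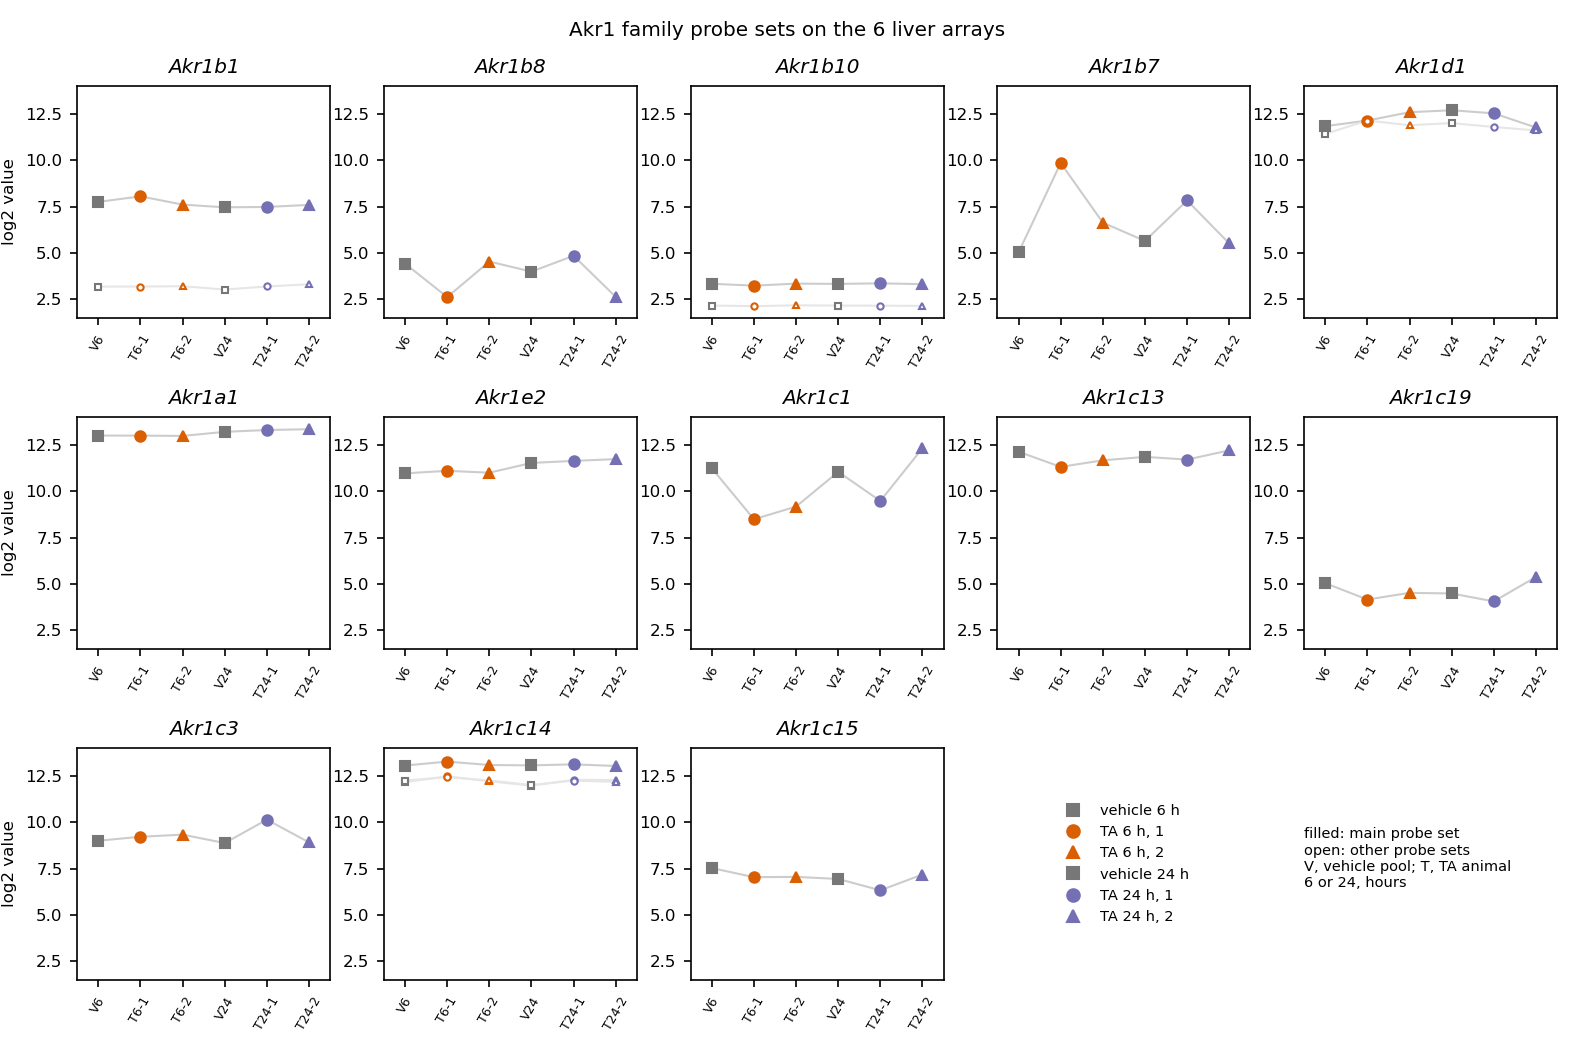
Log2 values (vertical axis) of each Akr1 gene on the 6 arrays (horizontal axis: V, vehicle pool; T, TA animal 1 or 2; 6 or 24, hours). Filled points are the probe set with the highest mean and small open points the gene's other probe sets, and lines only join the arrays. Akr1b7 and Akr1c1 span 4.82 and 3.83 on this scale, while Akr1a1 and Akr1c14 are nearly flat.

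At 6 h, Akr1b7 was higher and Akr1c1 lower than vehicle in both treated animals, each by more than 2-fold. In the B group, Akr1b7 (probe set 1368569_at), an aldose reductase relative first known from vas deferens and adrenal, was at 5.03 in the vehicle pool, 9.85 in animal 1 and 6.63 in animal 2. Animal 1 stood 28.3-fold and animal 2 3.05-fold above the pool. The mean log2 difference was 3.22 ± 1.81 (SE, n = 2 treated animals), and animal 1 exceeded animal 2 by 3.22 as well. It was 1.61 without animal 1 and 4.82 without animal 2.

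At 24 h, Akr1b7 was at 5.65 in the vehicle pool, 7.83 in animal 1 and 5.51 in animal 2. Animal 1 was 4.54-fold above the pool, and animal 2 lay 0.14 below it. Over both times, 3 of 4 treated animals were thus above both vehicle pools and 1 lay between them. The mean log2 difference at 24 h was 1.02 ± 1.81 (SE, n = 2 treated animals), and it was -0.14 without animal 1. Against the 24 h vehicle pool, the mean difference at 6 h was 2.60.

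Several marker lists of other cells were also at their highest in TA animal 1 of 6 h, the array with the highest Akr1b7 value. The summed level of 9 Kupffer cell and macrophage markers was 13.49 there and 12.87 to 13.25 on the other arrays. That of 10 stellate cell markers was 13.95 there and 12.64 to 13.59 on the others, with Des below the filter. Col3a1, Col1a1, Col1a2, Dcn, Lrat and Reln were at their highest there, and Sparc, Pdgfrb and Acta2 were not. The summed level of 5 cholangiocyte markers was 10.59 there against 9.20 to 9.99, carried by Epcam, with Krt7, Spp1 and Cftr below the filter. The sinusoidal endothelium list of 7 markers was at 12.87 there, below the 13.11 of its vehicle pool and within the 12.62 to 13.11 of the other arrays. Lists of 3 erythroid and 3 neutrophil markers were highest elsewhere. The erythroid list reached 14.29 in TA animal 2 of 24 h, and the neutrophil list 5.94 in the 24 h vehicle pool. They were at 14.04 and 5.16 in TA animal 1 of 6 h. The GAPDH signal at its 3′ end minus that at its 5′ end, a sign of RNA quality, was 2.26 on this array and 1.82 to 2.04 on the others. The same measure for actin was 4.31 on this array, within the 4.17 to 4.36 of the others. The part of these differences in the Akr1b7 value was not tested. In whole liver, more or fewer cells of a type cannot be told apart from more or less RNA per cell. The defining markers of the adrenal cortex, Star, Cyp11a1, Cyp11b1 and Cyp21a1, were below the filter, between 1.90 and 2.65 on every array. Among 8 pancreatic acinar markers, Cpb1 was at 7.02 in this animal and between 4.38 and 4.77 elsewhere, whereas Prss1, Cpa1, Cela2a, Pnlip and Cel stayed between 2.16 and 3.22, and Cela1 and Amy2a3, at 9.71 and 3.74, lay within the range of the other arrays. Akr1b7 and Akr1c3 were above their pool in TA animal 1 of 24 h. In that animal the intestinal marker Fabp2 was at 8.52, against 7.11 to 7.30 elsewhere. Tff3, the other marker of that list above the filter, was at 4.09 in that animal, within the 3.98 to 4.11 of the other arrays. Vil1, Cdx2, Lgals4 and Muc2 were below the filter.

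The other members of the B group did not follow Akr1b7. Akr1b1 (1367734_at), aldose reductase itself, which reduces glucose to sorbitol, was at 7.75 in the 6 h vehicle pool, with the animals at 8.05 and 7.60. Its 24 h values were 7.46 in the pool and 7.48 and 7.59 in the animals, so that the treated values of 6 h lay on either side of their pool and those of 24 h close to theirs. A second probe set of Akr1b1 (1396360_at) stayed between 3.02 and 3.31, at the floor of the values.

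Akr1b8 (1370902_at), a relative that reduces retinaldehyde and lipid aldehydes, differed between animals of the same treatment at both times. It was at 4.42 in the 6 h vehicle pool, 2.62 in animal 1 and 4.53 in animal 2. Its 24 h values were 3.99 in the pool, 4.85 in animal 1 and 2.63 in animal 2. The 2 lowest values are at the floor, where differences are compressed. Akr1b10 was at the floor throughout, between 3.23 and 3.36 on one probe set (1395190_at) and between 2.13 and 2.17 on the other (1382034_at), which alone of the 18 did not pass the filter.

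In the C group, 4 genes of the chromosome 17 cluster were lower than vehicle in both animals at 6 h, and none of them was lower in both at 24 h. Of all genes, 38.4% were lower in both animals at 6 h and 34.5% at 24 h. The other measured genes of the group, Akr1c3 and Akr1c14, were higher in both at 6 h. Akr1c1 (1393902_at), which the annotation also names Hsd17b5, a hydroxysteroid dehydrogenase, was at 11.23 in the 6 h vehicle pool, 8.49 in animal 1 and 9.17 in animal 2. The animals were 6.72-fold and 4.19-fold below the pool, a mean log2 difference of -2.41 ± 1.34 (SE, n = 2 treated animals). That SE pools both times, while the standard deviation of the treated animals was 0.48 at 6 h and 2.01 at 24 h. At 24 h, Akr1c1 was 11.04 in the pool, 9.47 in animal 1 and 12.32 in animal 2, which is 2.98-fold below and 2.42-fold above. The vehicle pools differed by 0.19, while the treated animals of 24 h differed from each other by 2.85. The mean at 24 h, -0.15 ± 1.34, therefore stands for 2 animals on opposite sides of their pool.

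Akr1c13 (1398612_at) had the same order of arrays as Akr1c1 over a smaller span. It was at 12.13 in the 6 h vehicle pool, 11.31 in animal 1 and 11.66 in animal 2, and at 24 h at 11.85 in the pool, 11.70 in animal 1 and 12.20 in animal 2. From lowest to highest, both genes ran through TA 6 h animal 1, TA 6 h animal 2, TA 24 h animal 1, vehicle 24 h, vehicle 6 h and TA 24 h animal 2. This order was found in 33 of 18625 probe sets (0.177%), and in 2 of the 17 members, these 2. The order searched for was that of Akr1c1, which therefore counts itself in both figures. The shared order was noticed in the values and then counted, so the share is a description.

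Akr1c19 (1386718_at) and Akr1c15 (1394681_at), less studied members of the group, differed from vehicle less. Akr1c19 was at 5.04 in the 6 h vehicle pool, with the animals at 4.16 and 4.52, and at 24 h at 4.49 in the pool, 4.06 in animal 1 and 5.37 in animal 2. Akr1c15 was at 7.53 in the pool of 6 h and at 7.04 and 7.05 in the animals, and at 24 h at 6.94 in the pool, 6.33 in animal 1 and 7.18 in animal 2. In all 4 genes, animal 1 of 24 h lay below its pool and animal 2 above it. For Akr1c15 the vehicle pools differed by 0.59, more than the 6 h difference of -0.48 ± 0.40, and against the pool of 24 h that difference was 0.10.

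**Figure D2:**
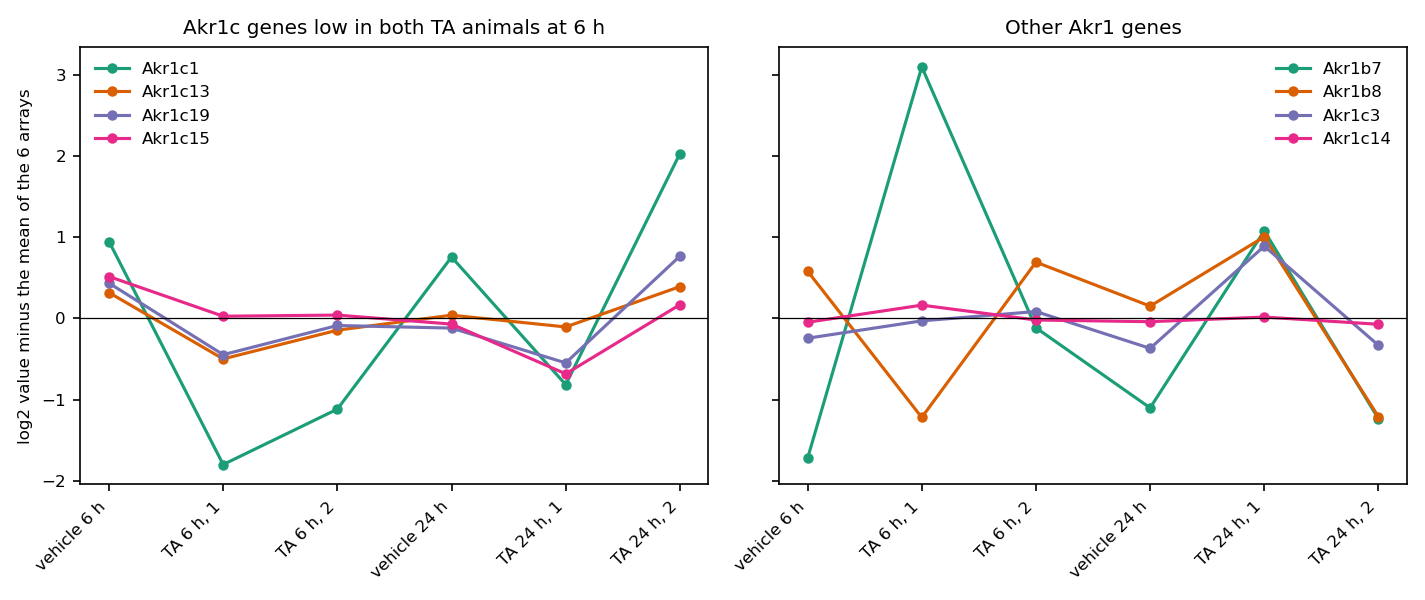
Log2 value minus the mean of the 6 arrays (vertical axis) for each array (horizontal axis), for 4 Akr1c genes (left) and 4 other Akr1 genes (right), using the probe set with the highest mean. The left genes are lower in animal 1 than in animal 2 at 24 h, most widely for Akr1c1, while Akr1b7 is highest in TA 6 h animal 1.

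Akr1c3 and Akr1c14, which lie between Akr1c12 and Akr1c15, did not share these values. Akr1c3 (1387958_at), the hydroxysteroid dehydrogenase that inactivates progesterone in rat ovary, was at 9.0 in the 6 h vehicle pool, with the animals at 9.21 and 9.33. Its 24 h values were 8.87 in the pool, 10.14 in animal 1 and 8.91 in animal 2, so that animal 1 alone stood 2.40-fold above its pool. Akr1c14, the major hydroxysteroid and dihydrodiol dehydrogenase of rat liver, had 3 probe sets. On the one with the highest mean (1370563_at) it was at 13.06 in the pool of 6 h, 13.27 and 13.08 in the animals, 13.06 in the pool of 24 h, and 13.12 and 13.03 in the animals. Its other probe sets (1396933_s_at and 1370708_a_at) gave mean differences of 0.18 ± 0.15 and 0.09 ± 0.13 at 6 h and 0.31 ± 0.15 and 0.21 ± 0.13 at 24 h, against 0.12 ± 0.13 and 0.01 ± 0.13 on the first (SE, n = 2 treated animals at each time).

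Akr1d1, the steroid beta-reductase that gives bile acids the bent shape of their ring system, was above vehicle in both animals at 6 h and below it in both at 24 h, on both of its probe sets. On the first (1392384_s_at) it was at 11.83 in the 6 h vehicle pool, 12.14 in animal 1 and 12.59 in animal 2, and at 24 h at 12.69 in the pool, 12.52 in animal 1 and 11.76 in animal 2. On the second (1398310_at) it was at 11.42, 12.14 and 11.89 at 6 h, and at 12.00, 11.79 and 11.60 at 24 h, in the same order. The vehicle pool of 24 h was higher than that of 6 h by 0.86 and 0.58, while the treated means differed by -0.22 and -0.31 between the times. Against the pool of the other time the differences on the first probe set turned, to -0.33 at 6 h and 0.31 at 24 h.

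Akr1a1 and Akr1e2 hardly differed from vehicle at either time and were higher at 24 h than at 6 h, in the vehicle pools as well. Akr1a1 (1398753_at), the aldehyde reductase that turns glucuronate into gulonate on the way to ascorbate, was at 13.00, 13.00 and 12.98 in the vehicle pool and animals of 6 h, and at 13.20, 13.30 and 13.34 in those of 24 h. Akr1e2 (1371997_at), which reduces anhydrofructose, was at 10.96, 11.10 and 11.00 at 6 h and at 11.52, 11.63 and 11.73 at 24 h, in the same order. In both genes each array of 24 h lay above each array of 6 h.

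Over the family, 2 of the 17 probe sets above the filter were at least 2-fold from the vehicle pool in both animals at 6 h, where 0.526% of all 18625 probe sets were. This was 1 higher, against 0.231%, and 1 lower, against 0.295%. At 24 h it was 0 of 17 higher, against 0.236%, and 0 lower, against 0.344% (0.580% together). Akr1b7, Akr1c1 and Akr1c3 passed 2-fold in animal 1 of 24 h and Akr1b8 and Akr1c1 in animal 2, Akr1c1 in opposite directions. The share of all probe sets that passed 2-fold in 1 animal was not counted. Against the 24 h vehicle pool, 1 probe set in place of 2 passed at 6 h, since Akr1b7 in animal 2 fell just short. With each gene taken once, 5 of 13 genes were higher in both animals at 6 h and 5 lower in both, against 22.9% and 38.4% of 10449 genes. At 24 h, 4 were higher in both and 1 lower in both, against 28.1% and 34.5%. The median differences were -0.01 and 0.08 over the family and -0.03 and -0.01 over all genes. The members were chosen with these comparisons known, and both animals share a pool, so the counts support nothing further. All 4 treated animals lay on one side of both vehicle pools for 2 of 17 probe sets, one each of Akr1b1 and Akr1c14, against 8.02%. These were 1396360_at, at the floor, and 1396933_s_at. For neither gene did the probe set with the highest mean do so.

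Some members differed by at least 2-fold between the animals of the same treatment and time. At 6 h this held for 2 of 17, Akr1b7 and Akr1b8, against 2.24% of all probe sets. The 5 of 17 at 24 h were Akr1b7, Akr1b8, Akr1c1, Akr1c19 and Akr1c3, against 2.89%. Akr1b7 and Akr1b8 were 2-fold apart at both times, against 0.553% of all probe sets. The family was chosen with the values of Akr1b7 and Akr1c1 on these arrays known, and the low values of Akr1b8 are at the floor, so these shares are a description. Apart from those genes, only Akr1c19 and Akr1c3 are in the counts, both at 24 h. The vehicle pools differed by 2-fold for 0 of 17 members, against 3.17%, but a pool of 2 rats averages them. Over all 6 arrays, 6 of 17 members spanned at least 2-fold, against 15.5%.

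The comparison of TA at 24 h with TA at 6 h uses 2 animals against 2 and no vehicle pool. Its 6 h arrays are those on which Akr1b7 and Akr1c1 led to the choice of the family, so the differences of these genes are given with no p. In limma's test, these genes included, 0 of 17 members and 0 of 18625 probe sets (0%) were called, and at an unadjusted p under 0.05 it was 2 of 17 members against 14.8%. These 2 were Akr1e2, with a difference of 0.64 ± 0.09 (adjusted p = 0.178), and Akr1a1, with 0.33 ± 0.08 (adjusted p = 0.231), both higher in 2 of 2 animals at 24 h. Akr1c1 had 2.07 ± 1.09 and Akr1b7 -1.57 ± 1.48, errors that take in the spread between the animals. Without TA animal 1 of 6 h the Akr1b7 difference was 0.04, and that of Akr1c1 was 3.49 without animal 1 of 24 h and 0.64 without animal 2. The treated groups did not overlap for 7 of 17 members, against 42.6% of all probe sets. Values of 6 h and 24 h differ in time, in the number of doses and in hours since the last dose, which cannot be told apart.

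The genes whose centred log2 values came closest to a member over the 6 arrays were looked up, as the root mean square (RMS) difference. Each value rests on the same 6 arrays, and closeness says nothing of shared control. For Akr1b7 they were A1bg, a plasma glycoprotein, at an RMS of 0.44, then RT1-Ba, a class II histocompatibility gene, at 0.87, and Mx2, an interferon-induced GTPase, at 0.97. Akr1b7 itself had an RMS of 1.66 around its mean. A1bg was at 3.13, 6.85 and 3.38 in the vehicle pool and animals of 6 h, and at 3.00, 4.77 and 2.60 in those of 24 h, so that animal 1 was the highest at both times, as with Akr1b7.

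For Akr1c1, the closest was Hamp, the iron hormone hepcidin, at an RMS of 0.52, followed by Zfp189 at 0.69 and Lrtm2 at 0.73, where Akr1c1 itself had 1.34. Hamp was at 12.28, 10.69 and 10.05 in the vehicle pool and animals of 6 h, and at 12.05, 11.07 and 12.95 in those of 24 h. Like Akr1c1, it was low in both animals of 6 h and in animal 1 of 24 h, and highest in animal 2 of 24 h. For Akr1c19 the closest were Trak1, Matr3 and Slc16a13, at 0.12 to 0.17, and for Akr1c15 LOC100909928, Ddb2 and Bmp2, at 0.08 to 0.09. Akr1c3 came closest to Pde4b, Mfhas1 and Sema3c, at 0.11 to 0.15. Akr1b8 came closest to Trak2, Cisd2 and Uri1, at 0.18 to 0.31. Trak2 was at 7.16, 5.55 and 7.40 at 6 h and at 6.96, 7.57 and 5.90 at 24 h, well above the floor that Akr1b8 reached on the same low arrays.

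Neighbouring pathways were read from lists of genes. Outside family 1, Akr7a3, an aldehyde reductase, was at 11.17 in the 6 h vehicle pool, with the animals at 12.28 and 12.22, and at 10.30, 10.99 and 10.77 at 24 h. The differences were 1.08 ± 0.14 and 0.58 ± 0.14 (SE, n = 2 treated animals at each time). Unlike Akr1b7, its treated animals stood close to each other at both times. Akr7a2, the succinic semialdehyde reductase, had 0.22 ± 0.10 and 0.07 ± 0.10, and Kcnab1 and Kcnab2, potassium channel subunits with an aldo-keto reductase fold, had mean differences of -0.02 to 0.02 near the floor of the values. In this list 2 of 4 measured genes were higher in both animals at 6 h and 2 at 24 h, against 22.9% and 28.1% of all genes.

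Bile acid synthesis, the pathway of Akr1d1, had 8 of 14 genes higher in both animals at 6 h and 0 lower in both, and 5 higher and 7 lower in both at 24 h. Higher and lower in both were 22.9% and 38.4% of all genes at 6 h and 28.1% and 34.5% at 24 h. Cyp7a1, its rate-limiting enzyme, was at 8.77 in the 6 h vehicle pool, with the animals at 12.17 and 10.78, and at 24 h at 11.98 in the pool and at 10.88 and 10.25 in the animals. As with Akr1d1, the treated animals were above the pool at 6 h and below it at 24 h, and the vehicle pools themselves differed. Cyp8b1, the sterol hydroxylase that sets the share of cholic acid, had 1.62 ± 0.46 at 6 h and 0.52 ± 0.46 at 24 h, the latter from 0.89 in animal 1 and 0.14 in animal 2.

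In the polyol and ascorbate pathways, which hold the partners of Akr1b1 and Akr1a1, 4 of 10 genes were higher in both animals at 6 h and 2 lower, and 6 and 1 at 24 h, beside 22.9% and 38.4% of all genes at 6 h and 28.1% and 34.5% at 24 h. Sord, sorbitol dehydrogenase, had 0.21 ± 0.12 and 0.40 ± 0.12 at the 2 times. Gulo, the last enzyme of ascorbate synthesis, had -0.09 ± 0.20 and 0.50 ± 0.20, the latter from 0.31 in animal 1 and 0.68 in animal 2. Miox, which opens the inositol ring, had 1.01 ± 0.50 at 24 h, from 1.54 in animal 1 and 0.48 in animal 2, and Ugdh, which makes UDP-glucuronate, 0.35 ± 0.16 at 6 h.

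Among genes of steroid reduction and oxidation, the chemistry of the C group, 2 of 11 were higher in both animals at 6 h and 6 lower, and 6 and 2 at 24 h. For this list and those of the same paragraph, the shares higher and lower were 22.9% and 38.4% of all genes at 6 h and 28.1% and 34.5% at 24 h. Hsd11b2 had 0.51 ± 0.37 at 6 h, and Hsd17b2, which oxidises estradiol and testosterone, 0.28 ± 0.15 at 24 h. Carbonyl reductases of the short-chain family had 3 of 17 higher in both animals and 7 lower at 6 h, and 8 and 3 at 24 h, with Cbr1 at 0.47 ± 0.13 at 6 h and Dhrs7 at -0.69 ± 0.36 at 24 h (-1.05 in animal 1, -0.33 in animal 2). Aldehyde dehydrogenases had 6 of 14 higher and 5 lower at 6 h, and 5 and 2 at 24 h, with Aldh18a1 at 0.48 ± 0.10 at 6 h and Aldh1l1 at 0.61 ± 0.41 at 24 h (0.22 in animal 1, 1.00 in animal 2). Alcohol dehydrogenases had 1 of 4 higher at each time and 0 lower, with Adh5 at 0.32 ± 0.17 at 6 h and Adhfe1 at 0.29 ± 0.14 at 24 h.

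**Figure D3:**
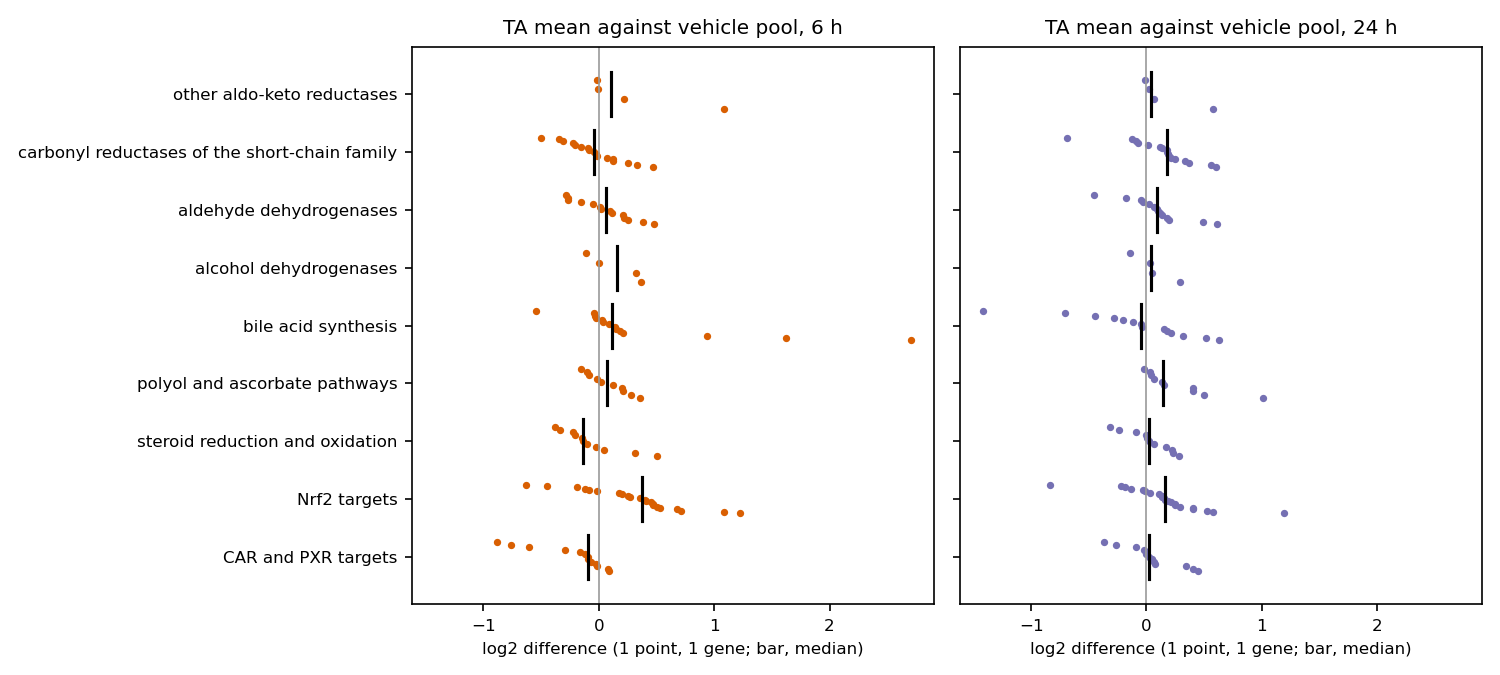
Log2 difference of the TA mean from the vehicle pool (horizontal axis) for the measured genes of 9 lists (vertical axis) at 6 h (left) and 24 h (right). Each point is 1 gene and the black bar is the median of the list. The Nrf2 list has medians of 0.38 and 0.16, and the other 8 lie between -0.14 and 0.18.

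Of the Nrf2 targets listed here without family 1, 15 of 22 were higher in both animals at 6 h and 3 lower, and 14 and 3 at 24 h, while the shares were 22.9% and 38.4% of all genes at 6 h and 28.1% and 34.5% at 24 h. The list holds Akr7a3, Cbr1 and Ugdh, described above. At 6 h Srxn1, which repairs overoxidised peroxiredoxins, had 1.22 ± 0.19 and the quinone reductase Nqo1 0.71 ± 0.15, and at 24 h Gsta3, a glutathione transferase, had 1.20 ± 0.15 (SE, n = 2 treated animals at each time). The median of the list was 0.38 at 6 h and 0.16 at 24 h, while the family 1 medians were -0.01 and 0.08. Of 19 listed targets of the receptors CAR and PXR, which sense drugs in liver, 13 were measured. No probe set carried Cyp2b1, Cyp2b2, Cyp3a1, Cyp3a23/3a1, Cyp3a62 or Ugt1a1 as its only symbol. At 6 h 1 of 13 was higher in both animals and 8 lower, and at 24 h 3 and 2, with the same shares over all genes. Cyp3a18 had -0.88 ± 0.76 at 6 h, from -1.50 in animal 1 and -0.26 in animal 2, and Cyp3a2 -0.37 ± 0.11 at 24 h. Of the 102 measured genes in the 9 lists, limma's test with Benjamini-Hochberg adjustment over all probe sets called 0 between TA and vehicle at either time, where it called 0% of all probe sets at 6 h and 0.00537% at 24 h. At an unadjusted p under 0.05 it was 12 genes at 6 h and 7 at 24 h, against 5.84% and 5.28% of all probe sets. The lists were drawn up with earlier results in view.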

How the data were processed

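Liver RNA on 6 Affymetrix Rat230_2 arrays was analysed from the log2 value table that the authors deposited. The submitters' processing notes list R 2.0.1, affy 1.5.8, RMA and GCRMA, without saying in the sources used here which of the last pair made it. No scanner intensities were used here, so background correction could not be varied. Members and gene lists were chosen with earlier results of these data known. Control probe sets, 57 in all, were dropped. The platform annotation gave 20826 probe sets 1 symbol, 436 several and 9780 none, and can be old. The symbols of all 18 members matched the RefSeq table by gene identifier. Probe sets with a mean above the 40th percentile (2.82), 18625 of them, entered the fits. A gene was represented by its probe set with the highest mean.

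A mean per group was fitted by limma 3.58.1 (lmFit and eBayes, R 4.3.3). There were 2 residual degrees of freedom and a prior of 1.60, and p-values are two-sided, adjusted by Benjamini-Hochberg and called under 0.05. The median SE was 0.15 for TA against vehicle. On simulated arrays, probe sets were changed by 1, 2, 3 and 4 (log2), 50 of each among 18625. The comparison of TA at 24 h with TA at 6 h recovered 2, 39, 41 and 46 of each 50, with 6 false calls. All were changed at once, with independent normal noise and variances drawn from the fitted prior, so recovery on the real arrays can differ. On the real arrays this comparison called 0 of 18625, and Hsd17b2 at -2.48 ± 0.12 (adjusted p = 0.136) was not called. Precision is limited by the number of arrays, which carry no counting depth.

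All 18 Akr1 probe sets were named. In each list, genes at least 2-fold from the vehicle pool in both animals were named, or else the one with the largest difference of the same direction in both, and Akr7a2, Akr7a3, Cbr1, Nqo1, Cyp7a1, Cyp8b1, Sord and Gulo were always looked up. For members spanning at least 1 (log2), the 3 genes with the smallest RMS difference were named. Kcnab1 and Kcnab2 and the single marker genes were named after their values were seen.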

Additional observations from a re-analysis of the deposited data

Results flagged for a closer look

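In 2 genes both treated animals lay on one side of their vehicle pool at 6 h and both on the other side at 24 h. For Akr1d1 the effect at 24 h minus that at 6 h was -1.08 on its first probe set and -0.90 on its second. For Akr1a1 it was 0.13, from differences of -0.01 at 6 h and 0.12 at 24 h, and with quantile normalization the first turned to 0.05. The difference between the times was not tested. Over all 18625 probe sets, 15.5% had such opposite directions, and 3 of the 17 member probe sets did.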

How the results depend on the processing

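The number of Akr1 probe sets at least 2-fold from vehicle in both animals at 6 h was 2 and became 1 with the vehicle pool of the other time. At 24 h the number was 0. With an animal left out, the count rests on 1 animal and was above 0 at 24 h as well. The share of all probe sets passing in 1 animal was not counted. Both counts kept their value under median centring, quantile normalization, no filter, and both pools as 1 control group, and no probe set with several symbols held an Akr1 gene. Between the times, no member was called by limma in any alternative fit that was run. With the replicate number as a block (replicate block), 0 members were called between TA at 24 h and TA at 6 h. In that limma fit Akr1e2 had an adjusted p of 0.24, and no p is given for Akr1b7 and Akr1c1. The deviations of same-numbered animals correlated at -0.08 across probe sets. The sample labels give only a number, and whether same-numbered animals share more than that was not tested. Among 458 member values under alternatives, 37 turned sign, the 6 h differences of Akr1b7 and Akr1c1 not among them. With the hybridization group as a block, the 6 h comparison rests on animal 1 (Akr1b7 at 4.82, Akr1c1 at -2.75). The 24 h comparison lies in 1 hybridization group. Differences below about 3 (log2 value) are compressed at the floor, which touches Akr1b8 and Akr1b10.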
